A study of Mus musculus with 2 samples.

Results

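The miR-148/152 family of the mouse consists of 3 miRNA genes, Mir148a, Mir148b and Mir152, taken here by their GENCODE symbols from the 2202 miRNA genes of each count table. All 3 were found in both libraries. The libraries came from left cerebral cortex of B6CASTF1/J mice, hybrids of C57BL/6J and CAST/EiJ, at 18 to 20 months of age. They form 1 group of 2 biological replicates with no treatment and no other age, so levels and the spread between libraries are described and no condition is compared. The labels carry a shared donor identifier, and they name the sex as female in 2 fields and as male in another. Whether the libraries come from separate animals therefore rests on their replicate numbers, and the spread between them may be technical.

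A miRNA is cut from a hairpin precursor, loaded into an Argonaute protein, and finds its targets mainly through bases 2 to 8 of its mature sequence, the seed. Members of a family share a seed and can pair with the same sites in messenger RNAs. The miR-148/152 family is best known from liver, where miR-148a is abundant and represses the low-density lipoprotein receptor, and from human tumour cells, where its members repress the maintenance DNA methyltransferase DNMT1.

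The mature sequences of the 3p arms are shown first because they define the family. Capitals mark the seed.
mmu-miR-148a-3p: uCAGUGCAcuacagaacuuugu
mmu-miR-148b-3p: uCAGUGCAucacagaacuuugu
mmu-miR-152-3p: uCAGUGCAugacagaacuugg
The seed is the same in all 3, and none of the other mature sequences in the RefSeq table (GRCm38.p6, 1738 mature sequences) has it at bases 2 to 8. A perfect seed match in a target reads ugcacug. Counted from 1 at the 5′ end, miR-148a and miR-148b differ by C9U and U10C over 22 bases. From miR-148b to miR-152 the changes are C10G and U20G over the 21 bases they have in common, and from miR-148a to miR-152 they are C9U, U10G and U20G. The 3 sequences thus differ only next to the seed and near the 3′ end.

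Read without gaps, the opposite arms of the hairpins are less alike, and their seeds do not unite the family. Capitals again mark bases 2 to 8.
mmu-miR-148a-5p: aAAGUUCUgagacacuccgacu
mmu-miR-148b-5p: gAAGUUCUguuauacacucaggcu
mmu-miR-152-5p: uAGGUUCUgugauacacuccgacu
The seed aaguucu is shared by miR-148a-5p and miR-148b-5p and by no other sequence of the table. The miR-152-5p seed, agguucu, occurs in that sequence alone. Read from the 5′ end without gaps, miR-148b-5p and miR-152-5p are identical at 19 of 24 bases, while miR-148a-5p matches miR-148b-5p at 13 of 22 and miR-152-5p at 12 of 22. That count depends on length, as miR-148a-5p has 22 bases and the others have 24. Both miR-148a-5p and miR-152-5p end in cacuccgacu, so the count without gaps understates their likeness. The count tables hold 1 count per gene, so reads of the 5p and 3p arms were not told apart.

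The whole hairpins show where the 3p arm, in capitals, lies in each gene. All coordinates are those of mm10.
Mir148a (chr6:51269812-51269910, minus strand): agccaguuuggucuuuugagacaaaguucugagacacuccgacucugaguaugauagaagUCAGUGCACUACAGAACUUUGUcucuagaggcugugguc
Mir148b (chr15:103285125-103285221, plus strand): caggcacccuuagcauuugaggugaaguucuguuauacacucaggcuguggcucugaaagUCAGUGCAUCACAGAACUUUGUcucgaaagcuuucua
Mir152 (chr11:96850393-96850465, plus strand): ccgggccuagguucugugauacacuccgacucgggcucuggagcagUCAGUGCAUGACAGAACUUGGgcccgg
The annotated hairpins are 99, 97 and 73 nucleotides long. The Mir152 hairpin is the richest in G and C, at 61.6%, against 45.5% for Mir148a and 45.4% for Mir148b. The folding energy computed with RNAfold was -43.5 kcal/mol for Mir152, -41.0 kcal/mol for Mir148a and -30.9 kcal/mol for Mir148b, and 19 of 21, 19 of 22 and 17 of 22 bases of their 3p arms were paired in the predicted fold. In global alignments the hairpins were identical at 71 of 93 aligned bases for Mir148a and Mir148b, 58 of 71 for Mir148a and Mir152, and 59 of 71 for Mir148b and Mir152.

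The hairpins share no long stretch with each other or with another miRNA gene. The longest stretch shared on the same strand was 15 bases, between Mir148a and Mir148b, and 12 bases for Mir152. None of the 3 shares 20 bases with any of the other 2201 miRNA genes. No antisense count was recorded at any of them in either library, and their unstranded counts equalled their sense counts. Multimapping reads, which the tables list apart from the genes, were 41.8% of replicate 1 and 46.4% of replicate 2. How many of them belong to this family was not tested.

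All 3 genes were detected at low to middle levels, with Mir148b the highest. Levels are CPM, the sense count divided by the sense total of all miRNA genes and multiplied by 1000000. The sense total was 5166667 for replicate 1 and 4459993 for replicate 2. The threshold for expression, a level of at least 2 CPM in each library, was met by 3 of 3 members and by 409 of the 2202 genes. Intervals are exact (Clopper-Pearson) 95% intervals and cover counting error only.

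Mir148b (ENSMUSG00000065560.1) had 393 sense counts in replicate 1, or 76.1 CPM (interval 68.7 to 84.0), and 220 in replicate 2, or 49.3 CPM (43.0 to 56.3). Its mean was 62.7 ± 18.9 CPM (SD, n = 2). It was the family member with the most counts in each library. In the order of expressed genes it stood at place 218 of 409 by mean level.

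Mir148a (ENSMUSG00000065505.1), the member known for its abundance in liver, had 206 sense counts in replicate 1, or 39.9 CPM (34.6 to 45.7), and 179 in replicate 2, or 40.1 CPM (34.5 to 46.5). Its mean was 40.0 ± 0.19 CPM (SD, n = 2), at place 241. On library totals both libraries gave nearly the same level, and the difference between them was far smaller than the counting intervals. With the TMM and DESeq2 scalings used below, the SD was 2.73 and 4.17 CPM, so 0.19 CPM is no measure of precision.

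Mir152 (ENSMUSG00000065515.1) had 198 sense counts in replicate 1, or 38.3 CPM (33.2 to 44.0), and 72 in replicate 2, or 16.1 CPM (12.6 to 20.3). Its mean was 27.2 ± 15.7 CPM (SD, n = 2), at place 264. The level in replicate 2 was the lowest of the family in any library.

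**Figure D1:**
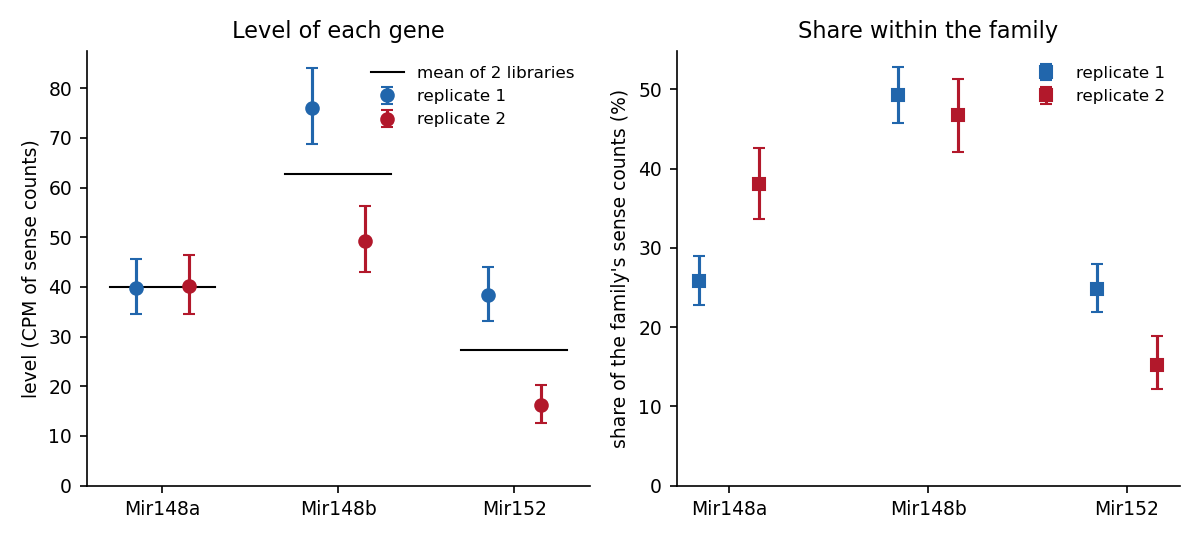
Left, level in CPM of sense counts for each gene in replicate 1 (blue) and replicate 2 (red), with exact 95% counting intervals and a black line at the mean; right, each gene's share in percent of the family's sense counts, with exact 95% intervals. Mir148a lies near 40 CPM in both libraries, while Mir148b and Mir152 are higher in replicate 1.

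Together the genes had 797 counts in replicate 1, or 154.3 CPM, and 471 in replicate 2, or 105.6 CPM, a mean of 129.9 ± 34.4 CPM (SD, n = 2). Their share of the sense total was 0.0154% in replicate 1 and 0.0106% in replicate 2. The median level of the 409 expressed genes was 88.9 CPM. Every member lay below that median, at 70.5% of it for Mir148b, 45.0% for Mir148a and 30.6% for Mir152, and only their sum lay above it.

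**Figure D2:**
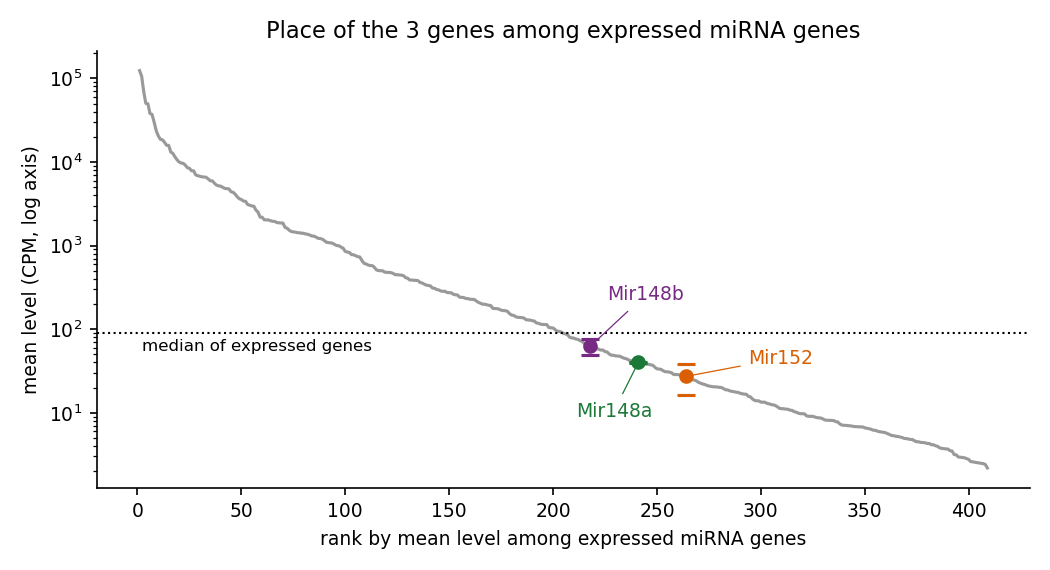
Mean level in CPM (log axis) of the 409 expressed miRNA genes against their rank (grey line), with the 3 family genes as dots and their single libraries as short bars. The genes lie at places 218, 241 and 264, under the dotted median of 88.9 CPM.

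Mir148b was the highest of the family in both libraries, and the order of Mir148a and Mir152 was not settled. Each ratio is taken within a library, so no scaling enters it. With 2 libraries the smallest two-sided p of an exact permutation test between 2 genes is 0.333 when their pairing by library is ignored. A paired exact test could go no lower, so none was run. Mir148a against Mir148b gave a log2 ratio of -0.93 in replicate 1 (counting interval -1.18 to -0.69) and -0.30 in replicate 2 (-0.59 to -0.01). Mir148a thus lay below Mir148b in both libraries, with the interval close to 0 in replicate 2. Mir148b against Mir152 gave 0.99 (0.74 to 1.24) in replicate 1 and 1.61 (1.22 to 2.02) in replicate 2, so Mir148b was higher in both.

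Mir148a against Mir152 gave a log2 ratio of 0.06 in replicate 1 (-0.23 to 0.35) and 1.31 in replicate 2 (0.91 to 1.73). The pair was not distinguishable by counts in replicate 1, and the mean of 0.69 ± 0.89 (SD, n = 2) was smaller than its spread. A miRNA read covers an arm rather than the whole hairpin. Per 100 nucleotides of annotated hairpin, a scale chosen after the data were seen, Mir148a stood at 40.4 ± 0.19 CPM, Mir148b at 64.6 ± 19.5 CPM and Mir152 at 37.3 ± 21.5 CPM (SD, n = 2 each). On that scale Mir148a was below Mir152 in replicate 1, at 40.3 and 52.5 CPM, and above it in replicate 2, at 40.5 and 22.1 CPM. Mir148b remained the highest in both libraries.

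The make-up of the family differed between the libraries. Mir148a held 25.8% of the family's counts in replicate 1 (22.8% to 29.0%) and 38.0% in replicate 2 (33.6% to 42.6%). Mir148b held 49.3% (45.8% to 52.8%) and 46.7% (42.1% to 51.3%). Mir152 held 24.8% (21.9% to 28.0%) and 15.3% (12.2% to 18.9%). The intervals overlapped for Mir148b and did not for Mir148a and Mir152. In whole tissue, fewer cells of a type and less RNA per cell cannot be told apart.

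Scaled by TMM, the log2 ratio of replicate 1 to replicate 2 was -0.14 for Mir148a (-0.44 to 0.16), 0.49 for Mir148b (0.25 to 0.74) and 1.11 for Mir152 (0.72 to 1.53). A change past 2-fold was seen in 1 of the 3, Mir152, which was 2.16-fold higher in replicate 1. Among all 409 expressed genes 24.2% lay past 2-fold, made up of 16.1% that were higher in replicate 1 and 8.07% that were higher in replicate 2. On library totals the split of the 102 genes past 2-fold was 80 to 22, against 66 to 33 of 99 with TMM. At mean levels of 20 to 100 CPM, the range that holds all 3 members, 28.4% of 81 genes lay past 2-fold. The members' count is near that background. Of the expressed genes, 19.1% had a larger absolute ratio than Mir152, 53.1% a larger one than Mir148b and 87.5% a larger one than Mir148a. These ratios compare the 2 libraries and not conditions.

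**Figure D3:**
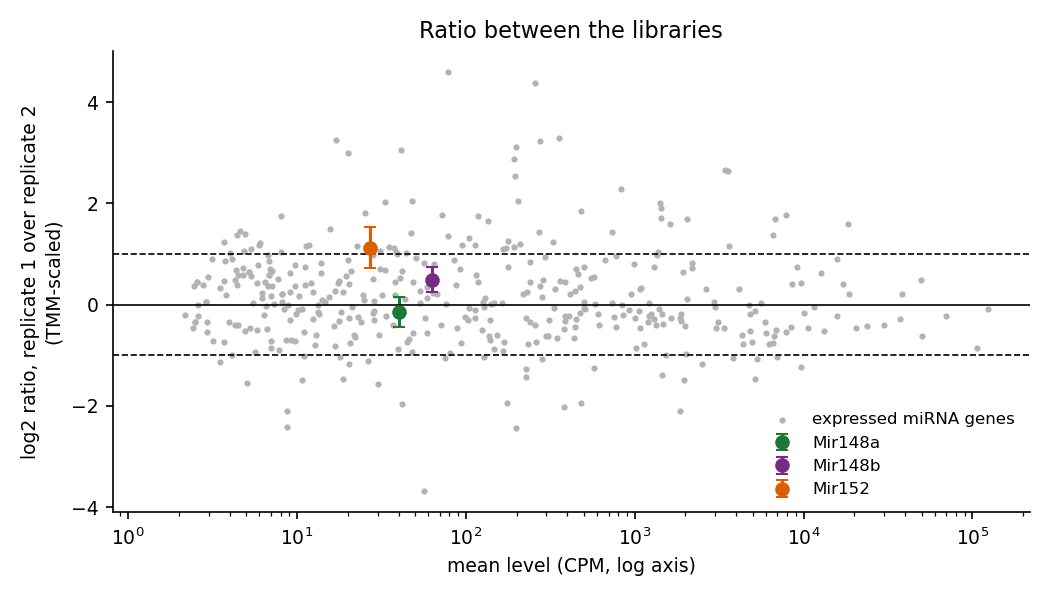
TMM-scaled log2 ratio of replicate 1 over replicate 2 against mean level in CPM (log axis) for the 409 expressed miRNA genes, with exact 95% counting intervals for the family. Dashed lines mark 2-fold; Mir152 at 1.11 lies past it, Mir148b at 0.49 and Mir148a at -0.14 lie within.

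The sums of several marker lists were higher in replicate 1, as Mir152 was. The 3 red cell genes, all expressed, summed to 122.1 CPM in replicate 1 and to 71.5 CPM in replicate 2. The highest of them, Mir451a, was nearly level, with a TMM-scaled log2 ratio of 0.11. Mir486 (1.05) and Mir144 (1.17) were past 2-fold higher in replicate 1, as were 16.1% of all expressed genes. The 7 epithelium genes, all expressed, summed to 1555 and 398.0 CPM, with Mir203 higher in replicate 2. The endothelial gene Mir126a stood at 21257 and 10411 CPM, with a TMM-scaled log2 ratio of 0.90, within 2-fold. None of the genes of these lists was at 0 in both libraries. The other way went the mural genes Mir143 and Mir145a, which summed to 5077 CPM in replicate 1 and to 9896 CPM in replicate 2. In the microglia and leukocyte list, with 6 of 6 genes expressed, the sums were close, at 1941 and 2008 CPM, but the median log2 ratio of replicate 1 to replicate 2 was -0.67. With TMM scaling its genes Mir142 (-1.05) and Mir223 (-1.17) were past 2-fold higher in replicate 2, as were 8.07% of all expressed genes; in CPM, Mir142 stood at 52.3 and 98.7, just under 2-fold. The part of all these lists in the result for Mir152 was not tested.

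By their sums, lists of neural cells, neuronal activity, liver and pancreas differed less than the red cell, epithelium, endothelial and mural lists. The neuron list, with 5 of 8 genes expressed, summed to 36750 CPM in replicate 1 and to 32334 CPM in replicate 2. Of its expressed genes Mir137 alone went the other way in CPM, at 5203 and 8033. The 3 genes of miR-124, a defining miRNA of neurons whose copies share their mature sequence, did not reach the threshold. The list of activity-regulated miRNAs, with 3 of 3 genes expressed, summed to 43494 and 34508 CPM, and none of them lay past 2-fold. The liver list, with 3 of 4 genes expressed and Mir194-1 at 0 without multimapping reads, summed to 94.8 and 83.2 CPM. Its highest gene, Mir122, stood at 54.6 and 60.1 CPM. Mir192, at 16.1 and 6.50 CPM (TMM-scaled log2 ratio 1.16), was past 2-fold higher in replicate 1, as were 16.1% of all expressed genes. The pancreas and endocrine list, with 1 of 4 genes expressed and Mir216b at 0, summed to 311.6 and 260.1 CPM. The oligodendrocyte list, with 2 of 4 expressed and Mir219b at 0, summed to 3952 and 3864 CPM. The part of these cells in the level of Mir148a was not tested.

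Genes with the most similar levels in both libraries were found by the distance between log2(CPM + 1) values over the 2 libraries. Nearest to Mir152 were Mir135a-1 (38.7 CPM in replicate 1 and, in replicate 2, 17.9 CPM, distance 0.144), Mir486 (43.0 and 18.8 CPM, distance 0.265) and Mir144 (32.1 and 13.0 CPM, distance 0.382). Mir486 and Mir144 are miRNAs of developing red cells. Nearest to Mir148a were the red cell miRNA Mir451a (47.0 and 39.7 CPM, distance 0.233), Mir190a (33.5 and 40.6 CPM, distance 0.246) and Mir25 (42.2 and 33.9 CPM, distance 0.252). Nearest to Mir148b were Mir412 of the imprinted Dlk1-Dio3 domain (68.7 and 49.6 CPM, distance 0.145), Mir7047 (72.0 and 56.3 CPM, distance 0.202) and Mir3059 (85.5 and 44.6 CPM, distance 0.219). With 2 libraries many genes of like level have a small distance, so these are neighbours in level and no more.

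The genes next to each member in the order of mean level were chosen by that level, so they lie close to it by choice. Mir148a lay between Mir345 (40.6 ± 13.0 CPM) and Mir155, a miRNA of activated immune cells (39.8 ± 14.4 CPM). Mir148b lay between Mir7047 (64.1 ± 11.1 CPM) and Mir412 (59.1 ± 13.5 CPM). Mir152 lay between Mir6236 (28.1 ± 0.56 CPM) and Mir10a, a miRNA of the Hoxb cluster (26.5 ± 12.3 CPM; SD, n = 2 each). Each of these differences was smaller than the SD of at least 1 gene of its pair, which adjacent rank made likely in advance.

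The family has an ordered place in the genome. Mir148b lies on the plus strand within an intron of Copz1 (ENSMUSG00000060992.9, chr15:103272714-103299868), in all of the 4 annotated transcripts of that gene, 12411 bases from its start. Mir152 lies on the plus strand within Copz2 (ENSMUSG00000018672.15, chr11:96849870-96861203), in an intron of 3 of its 5 transcripts and overlapping no exon, 523 bases from its start. Copz1 and Copz2 encode the zeta subunits of the coatomer, which coats vesicles on the way from the Golgi to the endoplasmic reticulum. Mir148a overlaps no annotated gene, and its nearest protein-coding gene is Nfe2l3 at 162.8 kb. The tables count miRNA genes alone, so host transcripts were not measured.

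Several of the coding genes around the 3 loci come from the same gene families. The families were picked by name within 1000000 bases, and the coding genes of these regions were not surveyed in full. A gene of the NFE2 transcription factor family lies near each: Nfe2l3 at 162.8 kb from Mir148a, Nfe2 at 26.7 kb from Mir148b and Nfe2l1 at 20.4 kb from Mir152. A gene of a heterochromatin protein 1 lies beyond it in each locus, Cbx3 at 200.4 kb, Cbx5 at 45.3 kb and Cbx1 at 41.8 kb. Hnrnpa2b1 (191.0 kb) and Hnrnpa1 (38.4 kb), which encode RNA-binding proteins, accompany Mir148a and Mir148b. Skap2 (587.5 kb) and Skap1 (91.3 kb), which encode adaptors of Src kinase signalling, accompany Mir148a and Mir152, as do the sorting nexin genes Snx10 (254.0 kb) and Snx11 (72.8 kb). Other close neighbours belong to none of these families: Gpr84 (23.0 kb) and Zfp385a (28.7 kb) near Mir148b, and Cdk5rap3 (57.0 kb) near Mir152.

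**Figure D4:**
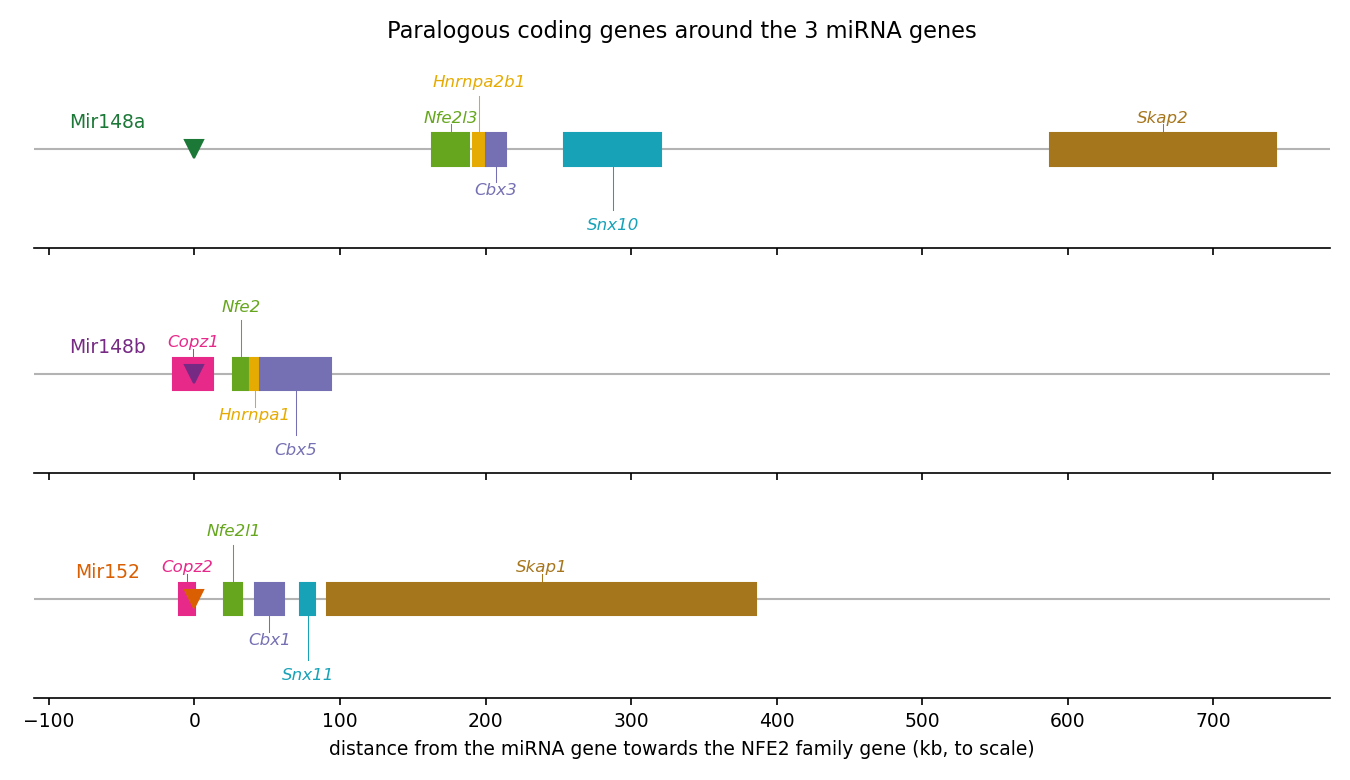
Protein-coding genes of the families named in the text around Mir148a, Mir148b and Mir152, drawn to scale as distance in kb from the miRNA gene (triangle) towards the NFE2 family gene, with 1 color for each gene family. The NFE2 family and heterochromatin protein 1 genes lie on the same side of the miRNA gene in all 3 loci, and the coatomer genes Copz1 and Copz2 span Mir148b and Mir152.

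All but 1 of the other miRNA genes in these chromosome regions had lower levels than each member in both libraries. Within 1000000 bases there were 3 other miRNA genes around Mir148a, 5 around Mir148b and 8 around Mir152, of which 0, 0 and 2 were expressed. The expressed ones were Mir8103, with 12 counts in each library, and Mir10a, with 92 counts in replicate 1 and 157 in replicate 2. Mir10a was the exception: Mir152 stood above it in replicate 1, at 38.3 against 17.8 CPM, and below it in replicate 2, at 16.1 against 35.2 CPM. Mir196b near Mir148a had 5 and 22 counts, Mir196a-2 near Mir148b had 0 and 17, Mir615 had 9 and 10, and Mir196a-1 near Mir152 had 0 and 1. A count of 0 does not show absence: the floor, set at 3 counts, is 0.581 CPM in replicate 1. The list of 6 Hox cluster miRNAs, 2 of them expressed, summed to 36.8 CPM in replicate 1 and to 90.4 CPM in replicate 2. It was thus higher in replicate 2, while Mir148b and Mir152 were higher in replicate 1.

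Other miRNAs reported to repress DNA methyltransferases were more abundant. The list held Mir29a, Mir29b-1, Mir29b-2, Mir29c, Mir140, Mir143, Mir185 and Mir342, of which 8 of 8 were expressed. The family summed to 0.449% of this list's level in replicate 1 and 0.298% in replicate 2. Of the list 7 of 8 lay above Mir148b by mean level. The remaining gene, Mir29b-1 at 58.9 ± 7.55 CPM (SD, n = 2), lay between Mir148b and Mir148a. Multimapping reads are not in these counts, so Mir29b-1 and Mir29b-2, named as copies, may be counted too low, which was not tested. Their places and the list's sum hold for counted reads only. The list's median log2 ratio of replicate 1 to replicate 2 was -0.06, against 0.04 for all 409 expressed genes. With TMM scaling 2 of its 8 genes lay past 2-fold, Mir140 and Mir143, both higher in replicate 2. In CPM, Mir143 stood at 4865 in replicate 1 and 9150 in replicate 2, under 2-fold. The share past 2-fold over all expressed genes was 24.2% in either direction and 8.07% for genes higher in replicate 2.

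The 7 bases of the family seed also occur at other positions of mature miRNAs. They were searched in all 1738 mature sequences, on the mature strand alone, and found in 17 (0.978%), in 7 of them at bases 1 to 7, a position earlier than in the family. These 7 sequences belong to or resemble the miR-130/301 family. The 3 of them with an expressed gene are shown because a shift by 1 base gives them a seed that overlaps that of miR-148, and miR-139-5p is shown because its gene had the highest level of all that hold the letters. Capitals mark the 7 bases.
mmu-miR-130a-3p: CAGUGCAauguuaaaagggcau
mmu-miR-130b-3p: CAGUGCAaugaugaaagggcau
mmu-miR-301a-3p: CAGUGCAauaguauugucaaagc
mmu-miR-139-5p: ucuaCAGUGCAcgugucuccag
Of the 7 genes with the early position 3 were expressed. Mir130a stood at 695.2 CPM in replicate 1 and, in replicate 2, 863.0 CPM, Mir130b at 79.0 and 98.9 CPM, and Mir301, the gene of miR-301a, at 338.7 and 53.1 CPM. These genes summed to 1064 ± 69.2 CPM, against 129.9 ± 34.4 CPM for the miR-148/152 family (SD, n = 2 each). Mir139, whose 5p arm holds the letters at bases 5 to 11, starting inside the seed and ending beyond it, had 123867 ± 2384 CPM (SD, n = 2). A match of letters is a description of the sequence and not evidence of a shared target. These genes were chosen after their values were seen.

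**Figure D5:**
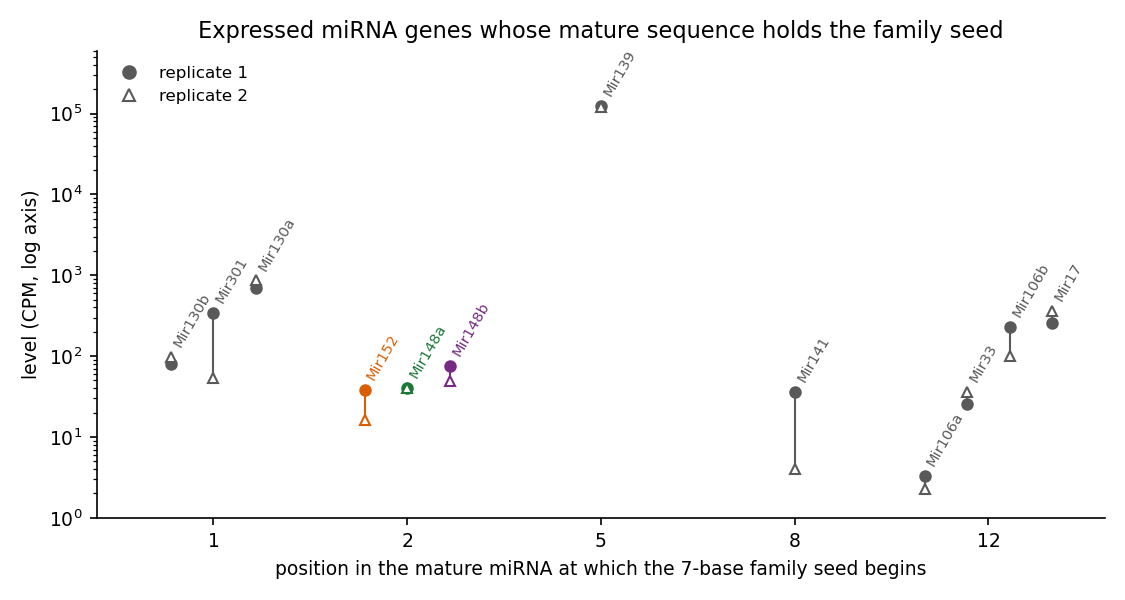
Level in CPM (log axis) in replicate 1 (filled dots) and replicate 2 (open triangles) of 12 expressed miRNA genes, by position of the family seed. These are the expressed genes whose mature sequence in the RefSeq table holds its 7 bases, placed by where they begin. The 3 family genes are in color at position 2, between 16.1 and 76.1 CPM; Mir139 stands highest.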

How the data were processed

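Small RNA below 30 nucleotides from total RNA was sequenced in 2 libraries. The authors deposited raw counts of reads for each miRNA gene, on mm10 with GENCODE M21, per the deposited file descriptions. Aligner and counter: not given in the sources used here. The 2202 identifiers are the miRNA genes of GENCODE M21. The stranded column with the larger total was taken as sense. The 4 lines that name no gene, 65.2% of reads in replicate 1 and 65.1% in replicate 2, were left out. Reads of the CAST/EiJ parent that differ from the genome may have been lost, which was not tested.

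Levels are CPM of sense counts. Library ratios add 0.5 to each count and use TMM sizes (edgeR 4.0.16); DESeq2 1.42.0 size factors were an alternative. Ratios of simulated counts were tested against known folds. Intervals used scipy 1.17.1 and folds RNAfold 2.7.2. Sequences are from RefSeq (GRCm38.p6), with 3 of 3 members matched. Named genes are the members, their neighbours in level (next in rank, 3 nearest) and position (1000000 bases), and fixed lists. Coding gene families near the members were picked by name. Members and lists were chosen with earlier results of these data known.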

Additional observations from a re-analysis of the deposited data

How the results depend on the processing

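Of 39 values computed under other settings for 12 results, 33 stayed within the spread of the libraries, the counting interval or 1.5 times the count. These 39 leave out the values from a single library, which with 2 libraries always lie within 1 SD of their mean, and the ratios between members on unstranded counts, which equal the sense counts. They still hold values that could not move or barely could: members at 1 CPM or more, and members' library ratios on unstranded counts. The 33 are thus no measure of robustness. With all reads of a table as the total, in place of sense counts, Mir148a stood at 13.9, Mir148b at 21.8, Mir152 at 9.49 and the family at 45.3. Unstranded counts, scaled to their own sum, placed Mir148a at 43.3 CPM. Without a filter, 336 of 771 genes lay past 2-fold between the libraries, against 99 of 409. Compared with library totals, TMM shifted every log2 ratio by -0.13 and DESeq2 size factors by -0.20, and the ratio of Mir152 ranged from 1.04 to 1.24. Leaving out a library gave 16.1 CPM to 38.3 CPM for Mir152 and 49.3 CPM to 76.1 CPM for Mir148b. The cause of these spreads was not tested. No paired comparison of conditions was possible because the labels give 1 group. Depth limits the low genes: 72 counts of Mir152 in replicate 2 carry an interval of 12.6 to 20.3 CPM.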
